A study of Gallus gallus with 6 samples.

Results

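The nuclear genes of oxidative phosphorylation were compared between anterior and posterior half-sclerotomes of wild type chick embryos at embryonic day 3, Hamburger and Hamilton stage 18. Members were the rows of the deposited gene table whose symbol matched a name or stem used for subunits of these enzymes or for cytochrome c (CYCS). The enzymes were NADH dehydrogenase (NDUFA, NDUFB, NDUFC, NDUFS, NDUFV), succinate dehydrogenase (SDHA to SDHD), the cytochrome bc1 complex (UQCR, CYC1), cytochrome c oxidase (COX4 to COX8) and ATP synthase (ATP5). This rule found 61 genes of the 17108 in the table, and the authors tested all 61. Of these, 54 are structural subunits, and the others are assembly or associated factors. No row carried the symbol SDHB, CYC1 or CYCS. Other subunits that the stems would match also had no row under their symbol, among them NDUFA6, UQCRFS1, UQCRB, COX5B and ATP5O. Each complex was therefore covered in part, and counts and medians by complex are over the genes found. The sclerotome is the ventral somite tissue that builds the vertebral column. Each library was made from a pool of 100 half-sclerotomes of somites 11 to 23, counted from the youngest, with 3 anterior and 3 posterior libraries. Both groups came from wild type eggs of the same supplier, and no treatment is named in the labels. Levels are in FPKM, a fragment count divided by transcript length and library total, and the table holds a single value for each group, so no level below carries a replicate error, and the authors' q-value is the error measure available. Whether pools of different libraries came from different embryos is not in the labels, so the spread behind the p-values may be partly technical.

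Oxidative phosphorylation is the last stage of respiration in the mitochondrion. Complex I takes electrons from NADH and complex II from succinate, both pass them through ubiquinone to complex III, and cytochrome c carries them on to complex IV, which reduces oxygen. Complexes I, III and IV pump protons across the inner membrane, and ATP synthase uses the return flow to make ATP. Most subunits are encoded in the nucleus, and a few core subunits are encoded by the mitochondrial DNA.

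None of the 61 genes differed between anterior and posterior half-sclerotomes at q under 0.05 in the authors' deposited Cuffdiff table (0 higher in posterior and 0 in anterior). Over all 10529 tested genes, 7.07% were called at that threshold in either direction, 3.57% higher in posterior and 3.50% higher in anterior. The lowest q that the authors' deposited table gives for a member was 0.124, for NDUFV3. At an unadjusted p under 0.05, 1 member passed, again NDUFV3, against 16.1% of all tested genes in either direction and 7.93% higher in anterior. The median log2 ratio of posterior over anterior FPKM was -0.06 over the members and 0.00 over all tested genes. Of the 61 members, 54 (88.5%) had a log2 ratio of size under 0.2, against 60.4% of all tested genes. That share rises with level, to 70.7% of tested genes with a mean of at least 10 FPKM. At 100 FPKM or more, a level chosen after the values were seen, it was 75.1%, against 92.1% of the 38 members there. A q above the threshold does not show that the levels were equal. As a guide to size, the smallest difference called anywhere in the authors' deposited table was 0.36 on the log2 scale (1.29-fold). Most tested genes differed by less than that, since 60.4% were already under 0.2, and the exact share was not computed. The same held for 59 of the 61 members, which adds little to the absence of calls. The other 2 members were NDUFV3 and ATP5J2.

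**Figure D1:**
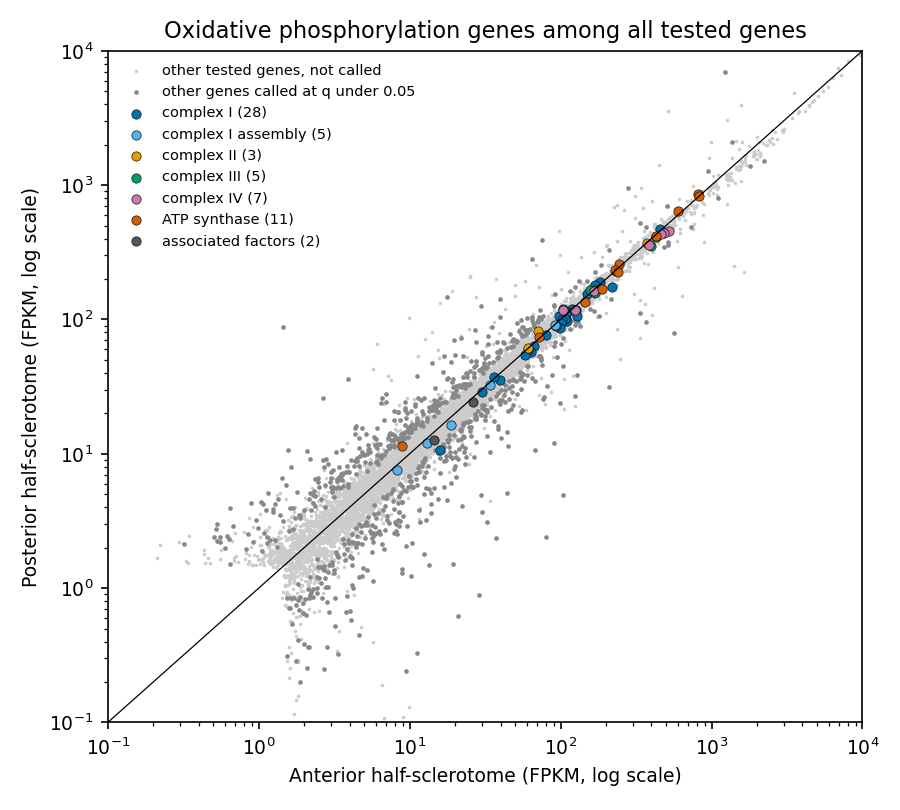
Authors' FPKM in anterior (x axis) and posterior (y axis) half-sclerotomes, both on log scales, for tested genes above 0.1 FPKM in both groups. The axes end below the highest genes, such as COX1 of the mitochondrial DNA (20909 and 21172 FPKM), which are not shown. Coloured points are the 61 oxidative phosphorylation genes by complex, grey points are other tested genes, and the line marks equal levels. The coloured points lie along the line, from 7.53 to 856 FPKM.

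These genes were abundant as a group. Their FPKM ran from 8.18 to 823 in anterior, with a median of 111, and from 7.53 to 856 in posterior, with a median of 117. The median over all tested genes was 17.7 and 17.9 FPKM. In anterior 38 members exceeded 100 FPKM and in posterior 36, whereas 9.84% and 9.88% of all tested genes did so. The share of called genes falls with level, to 5.76% of tested genes with a mean of at least 10 FPKM and to 3.86% at 100 FPKM or more, a level chosen after the values were seen. Of 38 members at that level, 0 were called, which is close to that share for so few genes. Summed over the 61 genes, FPKM came to 11328 in anterior and 11078 in posterior, 0.696% and 0.694% of the summed FPKM of each group. The sums over the 61 genes thus lay within a few percent of each other. The totals behind the shares include the mitochondrial DNA rows. Of these, 24 rows without a symbol summed to 764939 FPKM in anterior and 667956 in posterior. All tested genes summed to 1624127 and 1591516. The shares therefore depend on those rows, and shares without them were not computed.

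The small differences leaned towards anterior. Posterior FPKM was below anterior in 40 of 61 members (65.6%), against 49.1% of all tested genes. At a mean of at least 10 FPKM, where 60 of the 61 members lie, the share of all tested genes was also 49.1%. The lean was smaller at a mean of 100 FPKM or more, a level chosen after the values were seen. There 22 of 38 members were lower in posterior (57.9%), near the 55.4% of all tested genes. Those tested genes include 65 cytoplasmic ribosomal protein genes, of which 63 were lower. Among structural subunits at any level, 33 of 54 were lower in posterior (61.1%). None of these differences passed the test, and the lean is given as a count only. By class, the median log2 ratio was -0.05 for complex I, 0.02 for complex II, -0.07 for complex III, -0.09 for complex IV and 0.02 for ATP synthase. Complexes I, III and IV were mostly lower in posterior, in 18 of 28, 4 of 5 and 6 of 7 genes. ATP synthase and complex II were mostly higher in posterior, in 7 of 11 and 2 of 3 genes. Whether the classes differ from each other was not tested.

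**Figure D2:**
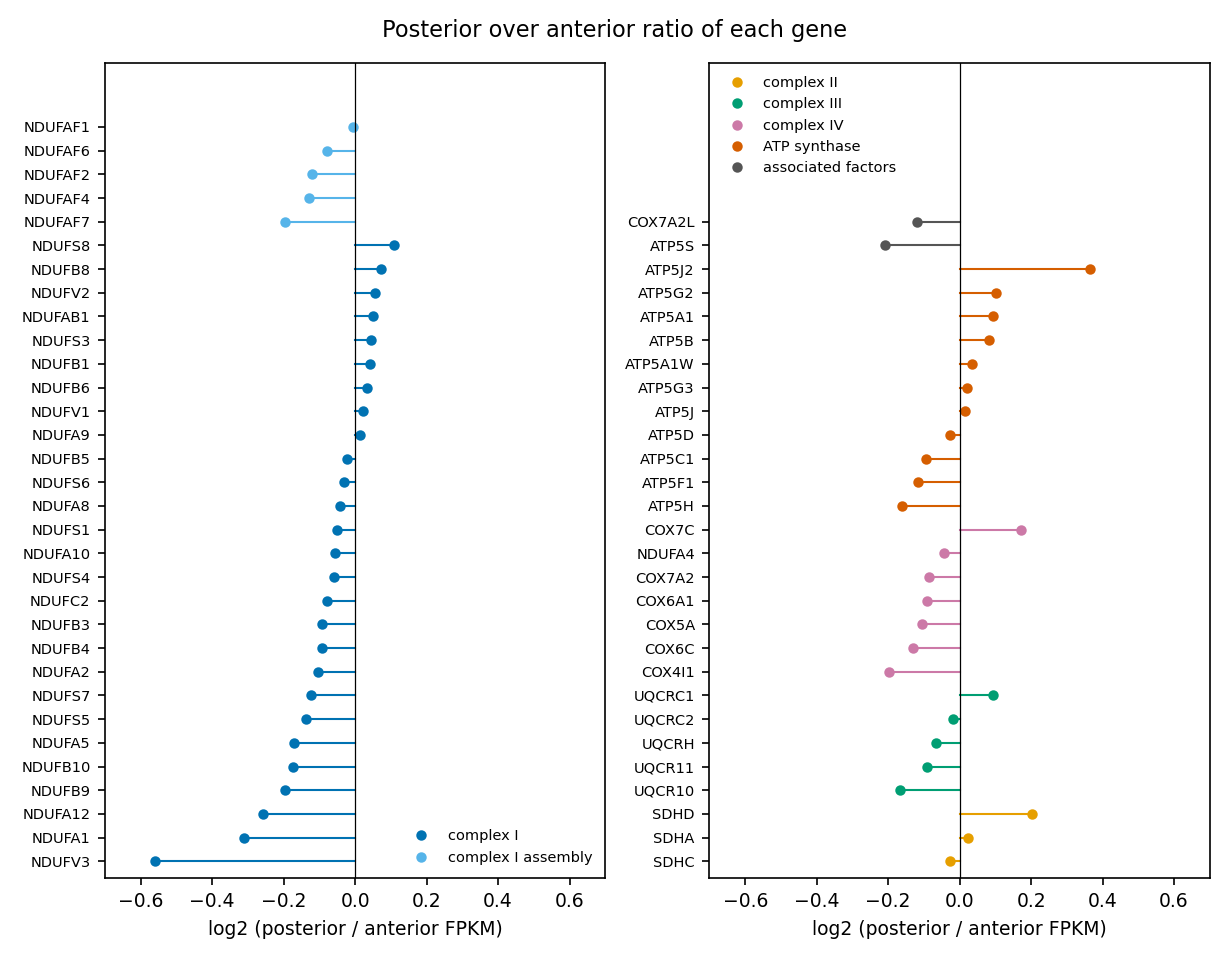
Log2 ratio of posterior over anterior FPKM for 60 of the 61 genes (x axis), grouped by complex (colour) and ordered by ratio within each. The left panel holds complex I and its assembly factors and the right panel the other classes; the ratios run from -0.56 (NDUFV3) to 0.37 (ATP5J2), and no gene was called.

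Complex I had 28 structural genes in the table. In the mammalian enzyme its peripheral arm holds a module that oxidises NADH and a module that reduces ubiquinone, and its membrane arm pumps protons. The NADH module gave the lowest ratio of all. NDUFV3, a small accessory subunit beside the flavin site, had 15.8 FPKM in anterior against 10.7 in posterior tissue (log2 ratio -0.56, p = 0.0122, q = 0.124 in the authors' deposited table). It was also the complex I gene with the lowest level, and it lies on chromosome 1 from 108926008 to 108928938 (galGal4). NDUFV1, which binds NADH and the flavin, had 118 FPKM in anterior and 120 in posterior. Its partner NDUFV2, an iron-sulfur subunit, was at 35.9 and 37.4 FPKM. NDUFS1, the large iron-sulfur subunit, was at 79.8 and 77.1 FPKM, and the accessory subunits NDUFS4 and NDUFS6 at 30.2 and 29.0 and at 60.8 and 59.4 FPKM. NDUFA2 was at 101 and 93.9 FPKM, and NDUFA12, which sits between the modules, at 128 and 107 FPKM (log2 ratio -0.26, q = 0.433 in the authors' deposited table). The lower value of NDUFV3 was thus not shared by its direct partners NDUFV1 and NDUFV2, whose ratios were 0.02 and 0.06.

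In the ubiquinone module, 3 of 5 genes described here were higher in posterior, with a median log2 ratio of 0.01 and no call. NDUFS8, an iron-sulfur subunit, was at 97.6 FPKM in anterior and 105 in posterior (log2 ratio 0.11, q = 0.830 in the authors' deposited table). NDUFS3 was at 110 and 114 FPKM, and NDUFS7, the subunit of the last iron-sulfur cluster, at 127 and 117. The accessory subunits NDUFA5 and NDUFA9 were at 39.5 and 35.1 and at 108 and 109 FPKM.

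All 5 members placed in the proximal membrane arm were lower in posterior, with a median log2 ratio of -0.08 and no call. NDUFA1, a small membrane subunit, was at 218 FPKM in anterior and 176 in posterior (log2 ratio -0.31, p = 0.0760, q = 0.392 in the authors' deposited table). It lies on chromosome 4 from 16454195 to 16454917. NDUFA8 was at 102 and 98.7 FPKM, NDUFA10 at 92.9 and 89.4, NDUFS5 at 63.4 and 57.6 and NDUFC2 at 66.9 and 63.3. In the distal arm 5 of 8 genes were lower in posterior. NDUFB1 had the highest level of complex I, at 456 and 469 FPKM. NDUFB5 was at 231 and 228 FPKM, NDUFB8 at 170 and 179, NDUFB6 at 150 and 153, NDUFB10 at 111 and 98.1, NDUFB3 at 107 and 100, NDUFB9 at 98.7 and 86.1 and NDUFB4 at 58.2 and 54.5. NDUFAB1, the mitochondrial acyl carrier protein, which also serves fatty acid synthesis, was at 182 and 189 FPKM. Levels within complex I thus differed 28.8-fold from NDUFV3 to NDUFB1 in anterior and 43.8-fold in posterior, more than any of these genes differed between the groups.

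The rule also took in 5 assembly factors of complex I, proteins that help build the enzyme and do not stay in it. All 5 were lower in posterior, none was called in the authors' deposited table, and their median log2 ratio was -0.12. NDUFAF1 was the most abundant, at 91.8 and 91.4 FPKM. NDUFAF6 was at 34.3 and 32.5 FPKM, NDUFAF4 at 13.0 and 11.9 and NDUFAF2, a relative of NDUFA12, at 8.18 and 7.53. NDUFAF7, a methyltransferase, was at 18.7 and 16.3 FPKM (log2 ratio -0.20, q = 0.699 in the authors' deposited table). Their levels, with a median of 18.7 FPKM in anterior, were below those of the structural genes of complex I, with a median of 102 FPKM. Another 23 genes for assembly or expression of the complexes, from a list outside the rule, included 0 genes with q under 0.05 and 3 with p under 0.05 in the authors' deposited table. The median of this list was -0.02 on the log2 scale.

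Complex II, also an enzyme of the citric acid cycle, was represented by SDHA, SDHC and SDHD. The flavoprotein SDHA was at 60.8 FPKM in anterior and 61.7 in posterior. The membrane anchors differed from each other in level, with SDHC at 376 and 369 FPKM and SDHD at 70.7 and 81.4. SDHD had the highest ratio of the complex (log2 ratio 0.20, q = 0.508 in the authors' deposited table). SDHC was thus 6.19 times the level of SDHA in anterior and 5.99 times in posterior. The citric acid cycle and pyruvate dehydrogenase list, which supplies NADH and succinate and does not include these genes, had 18 tested genes, of which the authors' deposited table gives 0 with q under 0.05 and 0 with p under 0.05. Its median log2 ratio was 0.06, with 7 of 18 genes lower in posterior.

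Complex III was represented by 5 genes, all above 150 FPKM. The core proteins UQCRC1 and UQCRC2 were close to each other, at 156 and 166 FPKM and at 169 and 167 FPKM in anterior and posterior. UQCRH, the hinge protein that contacts cytochrome c1, had the highest level, at 428 and 409 FPKM. The small subunit UQCR10 had the lowest ratio, at 399 and 355 FPKM (log2 ratio -0.17, q = 0.644 in the authors' deposited table). UQCR11 was at 168 and 158 FPKM. UQCRC1 was the one gene of the complex that was higher in posterior, with a log2 ratio of 0.09.

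Complex IV had the highest median level of the 5 complexes, 382 FPKM in anterior and 356 in posterior, and its 7 genes all exceeded 100 FPKM in both groups. COX4I1, the ubiquitous form of the regulatory subunit 4, led at 522 FPKM in anterior and 455 in posterior and had the lowest ratio of the complex (log2 ratio -0.20, p = 0.118, q = 0.496 in the authors' deposited table). It lies on chromosome 11 from 17077534 to 17081626. COX6C was at 483 and 441 FPKM, COX6A1, the form of subunit 6A found outside muscle in mammals, at 462 and 433, and COX5A at 382 and 356. NDUFA4, named as a complex I subunit and since placed in complex IV, was at 167 and 162 FPKM, and COX7A2 at 124 and 117. COX7C, on chromosome Z, alone was higher in posterior, at 104 and 117 FPKM (log2 ratio 0.17, q = 0.634 in the authors' deposited table). COX7A2L, a relative of COX7A2 that acts in joining complexes III and IV, was lower in level, at 26.4 and 24.3 FPKM, and COX7A2 was 4.72 times as high in anterior and 4.83 times in posterior.

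**Figure D3:**
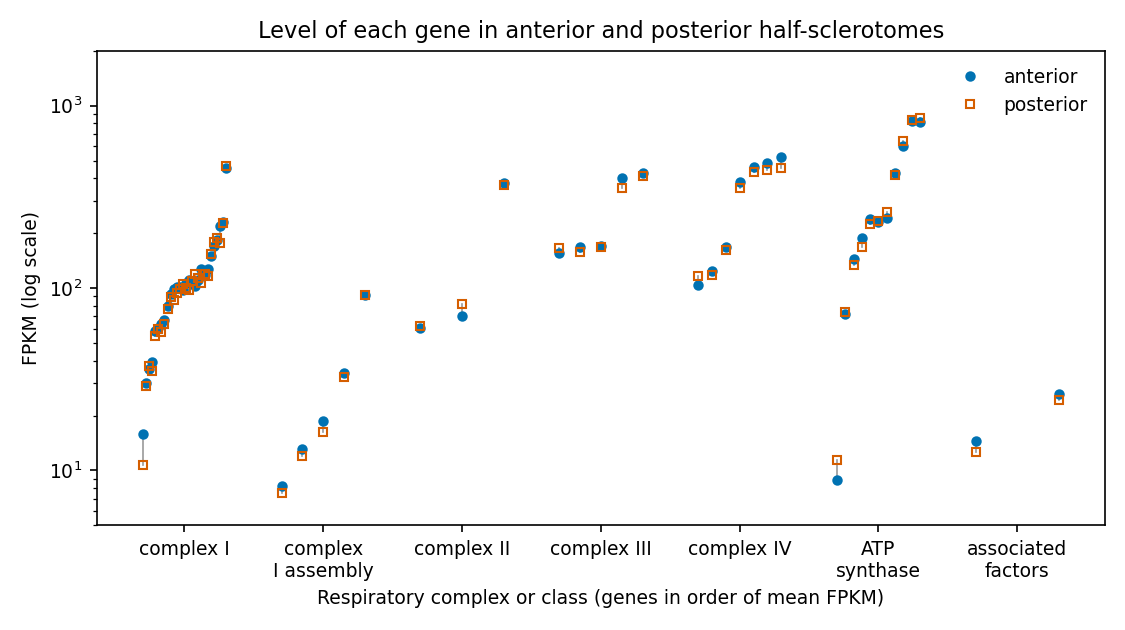
Authors' FPKM (y axis, log scale) of each of the 61 genes by respiratory complex or class (x axis), in order of mean level within each. Filled circles are anterior and open squares posterior, joined by a line; the distance between the groups is small beside the range within a complex, such as 8.90 to 823 FPKM in anterior for ATP synthase.

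ATP synthase was represented by 11 genes. Its head holds several alpha and beta subunits around a single gamma subunit, and its membrane ring is built from many copies of subunit c. Beta, ATP5B, was at 809 FPKM in anterior and 856 in posterior, and alpha, ATP5A1, at 602 and 642. Gamma, ATP5C1, was at 239 and 224 FPKM and delta, ATP5D, at 425 and 418. ATP5B was thus 3.39 times gamma in anterior and 3.83 times in posterior, and ATP5A1 2.52 and 2.87 times. No test of these ratios between groups was possible with 1 value per group.

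The ring subunit c was represented by ATP5G3, at 823 and 836 FPKM, and ATP5G2, at 243 and 261. No row carried the symbol ATP5G1, a further gene of this subunit. ATP5G3 was 3.39 times ATP5G2 in anterior and 3.21 times in posterior. The stalk genes ATP5J, ATP5H and ATP5F1 were at 231 and 233, at 189 and 169 and at 145 and 134 FPKM, and ATP5H had the lowest ratio of the enzyme (log2 ratio -0.16, q = 0.656 in the authors' deposited table). ATP5J2, the small membrane subunit f, had the highest ratio of all members, at 8.90 FPKM in anterior and 11.5 in posterior (log2 ratio 0.37, p = 0.107, q = 0.472 in the authors' deposited table). It was also the ATP synthase gene with the lowest level, and its locus, on chromosome 18 from 9275790 to 9281520, overlaps that of CPSF4L, so reads of both could be divided between them. ATP5S, a coupling factor that is no structural subunit, was at 14.5 and 12.6 FPKM (log2 ratio -0.21, q = 0.894 in the authors' deposited table).

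ATP synthase alpha has a copy on each sex chromosome in birds. ATP5A1, on chromosome Z from 2151456 to 2159196, was 8.37 times the level of ATP5A1W, the W copy found in females, in anterior and 8.72 times in posterior. ATP5A1W was at 71.9 FPKM in anterior and 73.6 in posterior (log2 ratio 0.03, q = 0.959 in the authors' deposited table). Reads of such similar genes could be assigned to either. Of the other members on chromosome Z besides COX7C, NDUFS4 had a log2 ratio of -0.06 and NDUFAF2 of -0.12. None of the 4 members on Z was called, and 2 of 4 were higher in posterior, while 12.7% of the 495 tested genes of chromosome Z were called and their median log2 ratio was 0.13. The 5 tested genes of chromosome W had a median log2 ratio of -0.28, with 4 lower in posterior and 0 called. ATP5A1W, on an unplaced sequence, is not among them. The sex of the embryos in each pool was not among the sample labels used here.

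The genes are scattered over the genome. On the numbered chromosomes and Z, 55 members lay on 22 chromosomes, and the other 6 were on unplaced or linkage group sequences. Pairs of members less than 500 kb apart were SDHA and NDUFS6 on chromosome 2, 305 kb apart, and NDUFV1 and NDUFS8 on chromosome 5, 106 kb apart. The log2 ratios of the first pair were 0.02 and -0.03, and those of the second 0.02 and 0.11. Loci of 8 members overlapped another row of the table.

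The mitochondrial DNA encodes other core subunits of complexes I, III, IV and ATP synthase. Of its 13 rows with a symbol, 1 was called (7.69%), near the 7.07% of all tested genes. ND6, a membrane subunit of complex I, was at 1370 FPKM in anterior and 2106 in posterior (1.54-fold higher in posterior, log2 ratio 0.62, q = 0.00139 in the authors' deposited table). In vertebrates ND6 is the only protein gene read from the light strand of this DNA. The other 12 rows with a symbol were not called, with log2 ratios from -0.19 (ND3) to 0.18 (ATP8) and a median of -0.04. Among them COX1, the catalytic subunit of complex IV, was at 20909 and 21172 FPKM, cytb of complex III at 10817 and 11073, and ND1 at 15334 and 14010. ND5, whose gene lies next to cytb, was at 5883 and 5393 FPKM. ND6 had the lowest level of the 13 rows, and its locus, from 16184 to 16705 of the mitochondrial sequence, overlaps no other row. ATP8, ATP6 and COX3 share a locus, from 9085 to 10706, and so do ND4L and ND4, from 11196 to 12863. Reads of such rows could be divided between them. Libraries were stranded per the labels' protocols, but no source used here tells whether counting used the strand. Summed over these 13 rows, FPKM came to 177741 in anterior and 180655 in posterior.

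**Figure D4:**
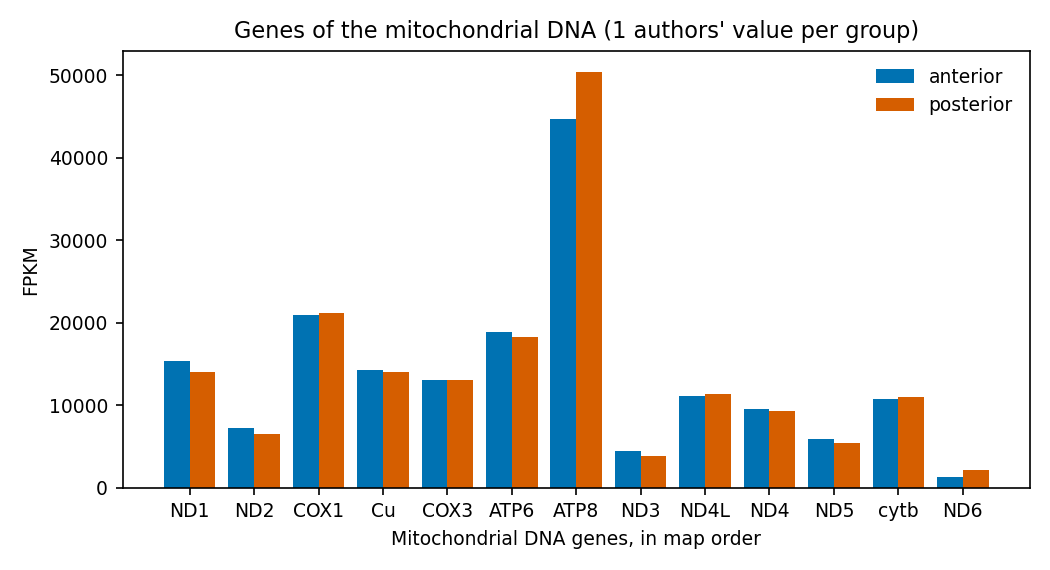
Authors' FPKM (y axis) for the 13 mitochondrial DNA rows with a symbol, in map order (x axis), 1 bar per group. The axis is linear, and bars of a pair differ most in height for ATP8, at 44699 FPKM in anterior and 50472 in posterior. ATP8 was not called, and it shares its locus with ATP6 and COX3, so reads could be divided between them. ND6, with the lowest bars, at 1370 and 2106 FPKM, had the largest ratio and alone was called.

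Other mitochondrial lists gave 0 calls, where 7.07% of all tested genes were called in either direction. At that share, 0 calls in a list of 13 genes or fewer is close to the background. So is 0 in the lists of 18 and 23 genes given above. Mitochondrial ribosomal protein genes, which make the subunits encoded in the mitochondrion, had 0 calls among 58 tested and 4 genes with p under 0.05 in the authors' deposited table, and a median log2 ratio of -0.05. Import genes of the TIMM and TOMM families had 0 calls among 13 (1 at an unadjusted p under 0.05) and a median of -0.04 in the authors' deposited table. Regulators of mitochondrial biogenesis had 0 calls among 11 tested (0 at an unadjusted p under 0.05) and a median of -0.06. Carriers and channels of the mitochondrial membranes had 0 calls among 7 (1 at an unadjusted p under 0.05) and a median of -0.01. Among 65 tested cytoplasmic ribosomal protein genes, 0 were called higher in posterior and 1 was called higher in anterior. Their median level was 1699 FPKM in anterior, their median log2 ratio was -0.18, and 63 had lower posterior values. The called gene was RPS25, at 1807 FPKM in anterior and 1388 in posterior (log2 ratio -0.38, q = 0.0278 in the authors' deposited table). Of 17 tested glycolysis genes, 0 were called higher in posterior and 1 was called higher in anterior, with a median of -0.14. At an unadjusted p under 0.05 there were 3 (17.6%). Posterior values were lower in 14 of the 17. The called glycolysis gene was LDHA, which encodes a subunit of lactate dehydrogenase, at 54.9 FPKM in anterior and 30.6 in posterior (q = 0.00139 in the authors' deposited table). Its partner LDHB had 669 FPKM in anterior and 552 in posterior, with q = 0.190 in the authors' deposited table. Differences between lists were not tested.

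**Figure D5:**
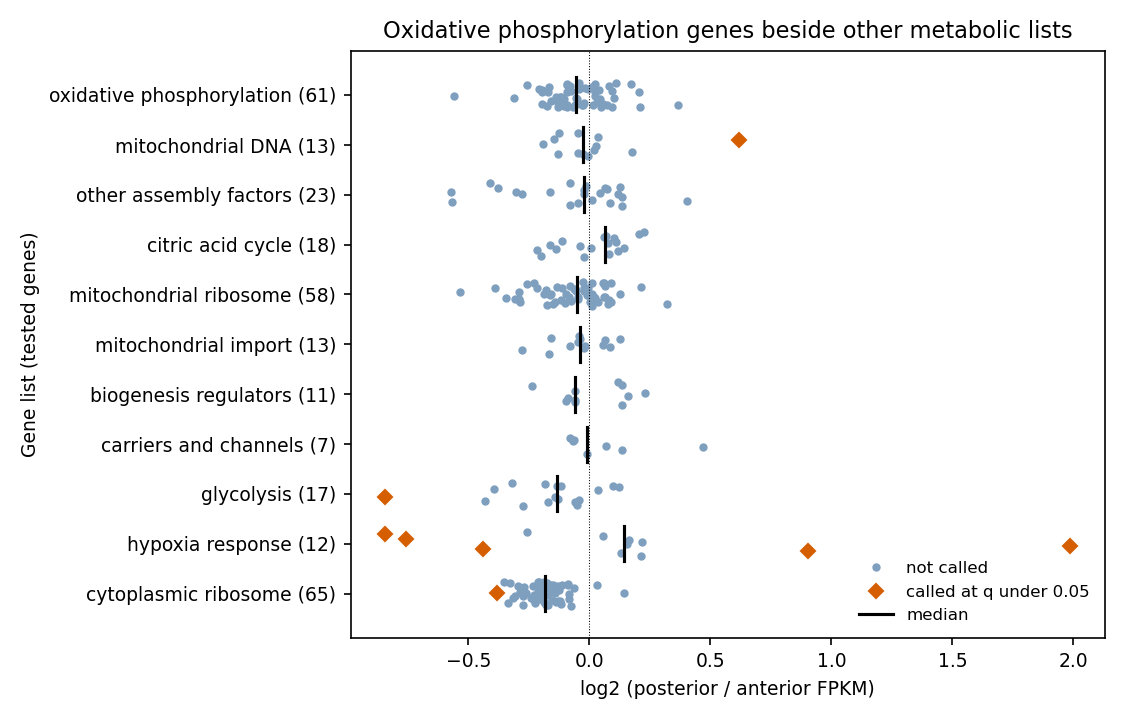
Log2 ratio of posterior over anterior FPKM (x axis) for tested genes of each list (y axis, number of tested genes in brackets). Circles are genes not called, diamonds are genes called at q under 0.05 and bars mark medians; the 61 oxidative phosphorylation genes have none called and a median of -0.06, and the mitochondrial DNA list has 1, ND6.

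Other measures of the tissue did differ between the same libraries. Of 8 tested sclerotome markers, posterior values were called higher for 5 and anterior values for 0, with PAX1 at 367 and 490 FPKM, so the labelled tissue expressed its defining genes in both groups. The highest log2 ratios among them were those of TCF15 (1.39), MEOX1 (1.30), MEOX2 (0.73) and PAX9 (0.65). Neural crest and Schwann cell precursor markers were called higher in anterior in 6 of 10 tested. Whatever the q, 8 of 10 were lower in posterior. Their summed level was 341 FPKM in anterior and 157 in posterior. The lowest log2 ratios were those of TFAP2A (-5.31), CDH7 (-5.11), TFAP2B (-5.03) and SOX10 (-4.39). Most of the posterior sum came from 2 genes of this list that were not called, NGFR at 80.8 and 79.3 FPKM and ETS1 at 50.9 and 62.6 FPKM in anterior and posterior tissue. Muscle precursor markers were called higher in anterior in 8 of 11, and all 11 were lower in posterior whatever the q. Their sums were 181 and 79.9 FPKM, with ratios of -3.06 for PAX3, -1.93 for MEF2C, -1.74 for CHRNA1 and -1.63 for TNNT2. Neuron markers were called higher in anterior in 2 of 3 tested, and all 3 were lower in posterior whatever the q. Their sums were 90.0 and 51.6 FPKM, with ratios of -1.23 for RET and -0.82 for TUBB3. Endothelial markers were called higher in posterior in 6 of 11, and 10 of 11 had higher posterior values whatever the q. Their sums were 139 and 199 FPKM, with ratios of 1.98 for VWF, 0.91 for ESAM, 0.90 for SOX18 and 0.73 for PLVAP. Red blood cell markers had 0 calls among 6 tested (0 at an unadjusted p under 0.05) and sums of 747 and 659 FPKM, with HBZ listed at 0 in both groups and HBA1 at 0 in anterior. All these counts are from the authors' deposited table and over tested genes, whereas the sums are over all matched rows of a list, 7 for neuron, 13 for muscle precursor and 9 for red blood cell markers. In pooled tissue, fewer cells of a type and less RNA per cell cannot be told apart. The part of these cell types in the respiratory gene ratios was not tested.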

How the data were processed

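RNA of 6 libraries (3 anterior, 3 posterior; about 200 ng of total RNA, poly(A) selection, stranded single-end reads of 50 nt, per the labels' protocols) was measured by sequencing. Tools listed in the submitters' processing notes, with no role given, were TopHat2 2.1.0, Cufflinks 2.2.1, Cuffdiff and FastQC, and the build was galGal4. Per the file headers, the deposited table is a Cuffdiff gene comparison with 1 FPKM value per group and the authors' p-value and q-value. The sources used here do not give the annotation release, the counting options or how libraries were normalized to each other. The table holds no counts, so depth is unknown, and no interval or detection limit is given. FPKM moves with the library total, transcript length and how shared reads were assigned.

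The log2 ratio of posterior over anterior was computed from the FPKM values without a pseudocount (Python 3.11.15, pandas 2.3.3). Genes were called at the authors' q under 0.05, over all 10529 tested rows; Benjamini-Hochberg adjustment of their p-values gave q to within 5.27e-07. The adjustment and the list summaries were tested on simulated data. In coordinates, 1 was added to starts, since the lowest start is 0. Other lists were matched by symbol or RefSeq synonym (GRCg7b, names only). Members are given with their levels, except 1 that is counted and not reported here by name; ratios and q are given for the genes of highest and lowest ratio in each class, for any at an unadjusted p under 0.05, and for a few more chosen after their values were seen. In other lists at most the 4 called genes of largest ratio are named, and a few more (LDHB, PAX1 and uncalled genes among them) chosen after their values were seen. The members and lists were chosen with earlier results of these data known.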

Additional observations from a re-analysis of the deposited data

How the results depend on the processing

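No member was called at q thresholds of 0.01 or 0.1, with Benjamini-Hochberg adjustment over tested rows that have a symbol or over those of mean FPKM at least 1, among structural subunits only, without the 8 rows that overlap another row, or at mean FPKM of at least 10. The same held at 100 FPKM or more, an alternative chosen after seeing the data. With unadjusted p under 0.05 in place of q, the count was 1 in either direction and 1 higher in anterior, by construction of the looser threshold. The median log2 ratio of the members ran from -0.06 to -0.03 over all alternatives. The latter came at FPKM of 100 or more and with FPKM rescaled to the same total in each group. That rescaling shifts every ratio by 0.03, and its total includes the mitochondrial DNA rows. No class median changed sign with a pseudocount of 1, with centring on the median of all tested genes or with that rescaling. Taking 1 row per symbol, or adding rows that were not tested, altered nothing because every member has 1 tested row. No paired analysis was possible because the table holds 1 value per group and none per library, and for the same reason no library could be left out. Depth is unknown, so the precision of low genes such as NDUFV3 and ATP5J2 rests on the authors' q.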

Other observations

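Genes that respond to oxygen or regulate respiration were measured beside the respiratory genes. Of 12 tested hypoxia response genes, the authors' deposited table calls 2 higher in posterior and 3 higher in anterior. Over all tested genes, 7.07% were called in either direction. Whatever the q, 8 of the 12 were higher in posterior and 4 lower. VEGFA, an angiogenic ligand, was at 6.60 FPKM in anterior and 26.2 in posterior, and EPAS1, which encodes a hypoxia-inducible factor prominent in endothelium, at 5.48 and 10.3, and the authors' deposited table gives q = 0.00139 for each. HIF1A, the widely expressed hypoxia-inducible factor, had 48.0 FPKM in anterior and 35.4 in posterior, and NDRG1 5.17 and 3.05, with q = 0.00955 and 0.0204 respectively in the authors' deposited table. The other called gene was LDHA, given above. SLC2A1, a glucose transporter, was at 44.0 and 51.0 FPKM, and PDK1, a kinase that inhibits pyruvate dehydrogenase, at 51.4 and 56.2, and neither was called. Endothelial markers summed to 139 FPKM in anterior and 199 in posterior, and their part in these values was not tested.

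TFAM, which packages mitochondrial DNA and acts in its transcription, was at 121 FPKM in anterior and 102 in posterior. POLRMT, the mitochondrial RNA polymerase, was at 33.2 and 31.8 (q = 0.364 for TFAM and 0.918 for POLRMT in the authors' deposited table). PPARGC1A, a coactivator of biogenesis prominent in muscle and brown fat, was at 0.124 and 0.0389 FPKM and was not tested by the authors.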
